A study of Drosophila melanogaster with 18 samples.

Results

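The 71 genes described here encode proteins of the mitochondrial ribosome of Drosophila melanogaster. They are the rows, among the 17559 genes of the deposited count tables, whose FlyBase identifier maps to a symbol of mRpL or mRpS followed by a number, and no expression value was used to choose them. The annotation holds 73 such symbols, and mRpS5 and mRpS34 are not analysed here. By symbol, 47 genes belong to the large subunit and 24 to the small subunit. They are spread over the main chromosome arms, with 12 genes on 2L, 12 on 2R, 15 on 3L, 21 on 3R and 11 on X.

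Mitochondria carry their own ribosomes, which translate the few membrane subunits of the respiratory chain and ATP synthase that the mitochondrial genome encodes. The ribosomal RNAs come from that genome, whereas every protein of the mitochondrial ribosome is encoded in the nucleus, made in the cytosol and imported. Some of these proteins descend from bacterial ribosomal proteins, and others were added during the evolution of the mitochondrion. In flies, reduced dose of a mitochondrial ribosomal protein is known to delay development and to impair growth. By number, 41 of the 71 symbols (28 large, 13 small) are named after bacterial proteins, and 30 (19 large, 11 small) carry the higher numbers, which were mostly given to proteins specific to mitochondria. A symbol does not always match the place of the protein: in mammals, the counterparts of mRpS30 and mRpS18A sit in the large subunit.

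Polyadenylated RNA was measured in 6 groups of wandering larvae with 3 libraries each, every library from 40 pooled wing discs. The wing disc is the larval epithelium that forms the adult wing and notum. The groups were control, wild type Tip60 (Tip60wt) and dominant negative Tip60 (Tip60dn), each at 48 h and at 78 h, and the series compares Tip60dn with Tip60wt. Tip60 acetylates histones within a chromatin complex called NuA4. All animals, controls included, received a heat shock of 30 min at 37 °C, which made overlapping clones of cells, were held at 18 °C with the transgene silent, and spent the last 48 h or 78 h at 28 °C. The sources used here do not give the driver of the transgene, the share of cells that expressed it or what the control carries. Nothing in the labels says that the pools of a group came from separate crosses or days, so p-values measure the spread between these pools. The counts were deposited as a separate table for each duration. A difference between 48 h and 78 h cannot be told apart from any difference in how the durations were prepared.

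Libraries held 65277725 to 105716567 counts. Tip60 counts, in counts per 1e6 counts of a library (CPM), were 30.8 to 44.9 in the control libraries, 986 to 1985 in the Tip60wt libraries and 1642 to 3346 in the Tip60dn libraries. Both transgenes carry Tip60 sequence, so these counts separate transgene from control but do not check which transgene a library holds. All 8 wing disc markers measured (nub, vg, sd, rn, pdm2, Dll, hth and tsh) were above 1 CPM in all 18 libraries, with group means from 80.1 CPM for pdm2 to 812 CPM for hth. Hemocyte markers differed between groups: the summed level of 8 such genes was 626 to 895 CPM in Tip60dn and 308 to 367 CPM in Tip60wt at 48 h, and 408 to 816 CPM and 300 to 392 CPM at 78 h. In control libraries it was 318 to 404 CPM at 48 h and 372 to 423 CPM at 78 h. The summed level of 4 tracheal markers was 901 to 947 CPM in Tip60dn, 814 to 889 CPM in Tip60wt and 734 to 800 CPM in control, and that of 5 myoblast markers was 200.3 to 269 CPM, 170 to 198 CPM and 174 to 193 CPM. The Tip60wt 48 h replicate 2 library stood apart in fat body transcripts, whose summed level was 2751 CPM there and 13.3 to 460 CPM in the other 17 libraries.

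The mitochondrial ribosomal protein genes were expressed in every group at moderate levels that differed little. For 70 of the 71 genes the mean over the 18 libraries ran from 6.88 to 91.6 CPM with a median of 23.6 CPM, and 52 of the 70 were above the median of all genes tested, 17.7 CPM. The exception was mRpL53 (FBgn0050481), which had 0 counts in all 18 libraries and was not tested. All of its exon bases (100%) lie within exons of CG33155 on the same strand, a gene with a mean of 0.137 CPM. How reads in shared bases were assigned is not known, so the 0 counts do not show that its transcript was absent.

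Per kilobase of exon, which allows levels to be compared between genes, mRpL12 was highest. This protein forms the stalk that recruits elongation factors, and its transcript averaged 69.7 ± 3.32 CPM per kb (SD over 18 libraries). It was followed by mRpL30 at 60.0 ± 3.23, mRpS7 at 53.3 ± 2.31, mRpS10 at 51.5 ± 3.59 and mRpS16 at 51.2 ± 2.24 CPM per kb, and the last 3 of these lay within their spread of each other. The lowest was mRpS24 at 11.5 ± 1.19 CPM per kb, followed by mRpL21 at 12.3 ± 0.801, mRpS14 at 15.01 ± 1.40, mRpL10 at 15.2 ± 1.46 and mRpL35 at 18.9 ± 1.102 CPM per kb. Neighbours in that order also lay within their spread, except for the step from mRpL21 to mRpS14 and the step from mRpL10 to mRpL35. Of the exon bases of mRpS24, 55.3% lie opposite TBC1d7, a gene with a mean of 15.8 CPM, and how reads there were assigned is not known. The median gene stood at 29.3 CPM per kb.

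Summed over the 71 genes, a library held 1782 to 1958 CPM. At 48 h the sums were 1933, 1862 and 1822 CPM in control, 1866, 1908 and 1860 CPM in Tip60wt, and 1948, 1832 and 1887 CPM in Tip60dn. The 3 groups overlapped at 48 h. At 78 h the sums were 1900, 1957 and 1928 CPM in control, 1958, 1898 and 1890 CPM in Tip60wt, and 1874, 1856 and 1782 CPM in Tip60dn. The Tip60dn libraries were the 3 lowest at 78 h and did not overlap the other groups. The group means were 1928 ± 28.2 (SD, n = 3), 1915 ± 37.0 and 1837 ± 48.9 CPM. The sum for large subunit genes stayed at 1.73 to 1.79 times that for small subunit genes in all libraries.

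**Figure D1:**
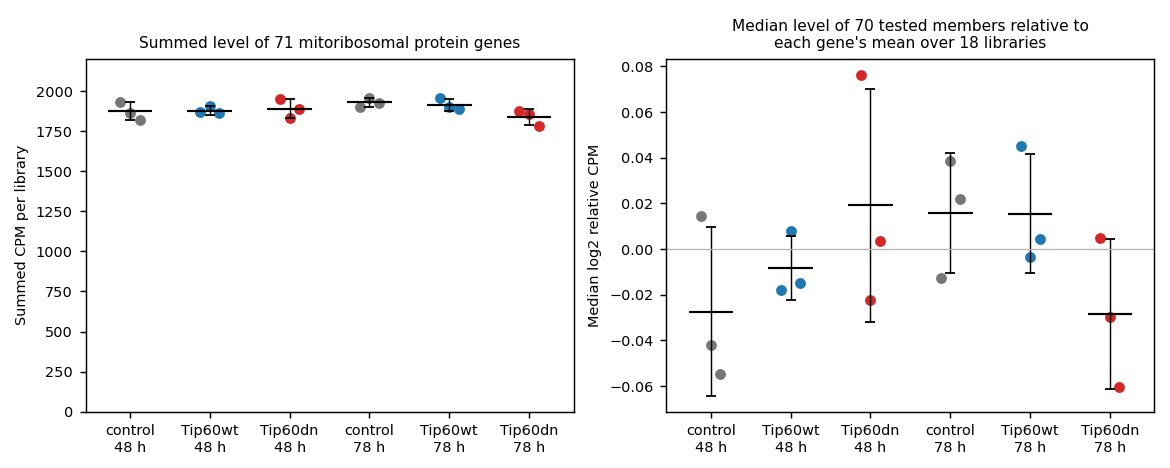
Left, summed CPM of the 71 mitochondrial ribosomal protein genes in each library (points) with the group mean and SD (n = 3). Right, the median over the 70 tested genes of log2 CPM relative to each gene's own mean over 18 libraries. The sums lie between 1782 and 1958 CPM, with the Tip60dn 78 h libraries (1782 to 1874 CPM) below the other libraries of that duration.

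The ratio between the highest and the lowest of the 6 group means had a median of 1.12 over the 70 genes and ran from 1.05 to 1.74. For all genes tested the median ratio was 1.32, and for cytosolic ribosomal protein genes it was 1.24. Of the 70 genes, 29 were called in none of the 6 comparisons within a duration (a call is an adjusted p under 0.05 in edgeR's quasi-likelihood test). That is 41.4%, near the 38.3% of all genes tested at both durations that were called in none. Their ratios were 1.05 to 1.22. They include mRpL12 and mRpL30, the highest by level per kilobase, and mRpS29, whose mammalian counterpart binds GTP. The widest ratios belonged to mRpL20 (1.74), mRpL18 (1.36) and mRpS30 (1.35).

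At 48 h, Tip60dn discs had slightly more transcript than Tip60wt discs for 11 mitochondrial ribosomal protein genes and less for 3. The 14 calls are 20.0% of the 70 genes, against 35.7% of all genes tested (18.0% higher and 17.7% lower). The median log2 fold change was 0.01, as it was for all genes, but the median size of the change was 0.0822 on the log2 scale against 0.216 for all genes. By subunit, 7 of 46 large subunit genes rose and 2 fell, and 4 of 24 small subunit genes rose and 1 fell. In bulk discs, fewer cells of a type and less RNA per cell cannot be told apart.

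The rises at 48 h were small. The small subunit gene mRpS25 (FBgn0030572) had 23.4, 22.8 and 22.8 CPM in Tip60dn against 19.2, 20.9 and 18.9 CPM in Tip60wt and 21.1, 20.6 and 19.2 CPM in control. The Tip60dn libraries were the 3 highest, without overlap. In each comparison within a duration, every called gene of the set was without overlap between the groups compared. The lack of overlap is thus no support beyond the call itself. The log2 fold change against Tip60wt was 0.23 ± 0.057 (SE), with an edgeR adjusted p of 0.0126. For mRpL46, a large subunit protein specific to mitochondria, the levels were 25.5, 24.6 and 26.2 CPM in Tip60dn, 21.8, 22.1 and 21.8 CPM in Tip60wt and 23.6, 22.3 and 20.4 CPM in control. Again the Tip60dn libraries were above all others of that duration, with a log2 fold change of 0.22 ± 0.057 (SE; edgeR adjusted p 0.0157). Without Tip60wt replicate 1 or 3 the adjusted p was 0.0594 and 0.0539 for mRpS25 and 0.0615 and 0.0529 for mRpL46, and without Tip60dn replicate 3 it was 0.0536 for mRpL46.

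The gene for mRpL2, whose bacterial counterpart lies next to the peptidyl transferase centre, had 35.8, 35.3 and 36.5 CPM in Tip60dn, 31.1, 31.5 and 31.3 CPM in Tip60wt and 32.3, 32.3 and 30.9 CPM in control. The Tip60dn libraries did not overlap the others, and the log2 fold change against Tip60wt was 0.20 ± 0.037 (SE; edgeR adjusted p 0.00289). The other named genes that rose were mRpS6 and mRpL41 (0.19 each), mRpL16 (0.18), mRpL39 and mRpS18B (0.17 each), mRpL3 (0.16) and mRpL19 (0.15), all as log2 fold changes with edgeR adjusted p from 0.019 to 0.0499. Their protein products come from both subunits and from both classes of origin. The calls of mRpS6 and mRpL41 were each lost under 10 alternatives (edgeR or DESeq2 adjusted p up to 0.169 and 0.164). Among these were DESeq2, no filter on low counts, and leaving out any 1 library of either transgene.

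The count of 11 rests on few libraries: it was 2 without Tip60wt replicate 1, 1 without Tip60wt replicate 3, 4 without Tip60dn replicate 1 and 3 without Tip60dn replicate 3, and it was 4 with no filter on low counts and 7 with the replicate number as a block. Of the named rises, only mRpL2 kept its call under every alternative tried. Without Tip60wt replicate 2, the library with fat body transcripts, the count was 9. Hemocyte markers (8 of 8, median log2 fold change 1.53) and tracheal markers (2 of 4, median 0.19) were also called higher in Tip60dn in that comparison, and their part in these results was not tested.

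**Figure D2:**
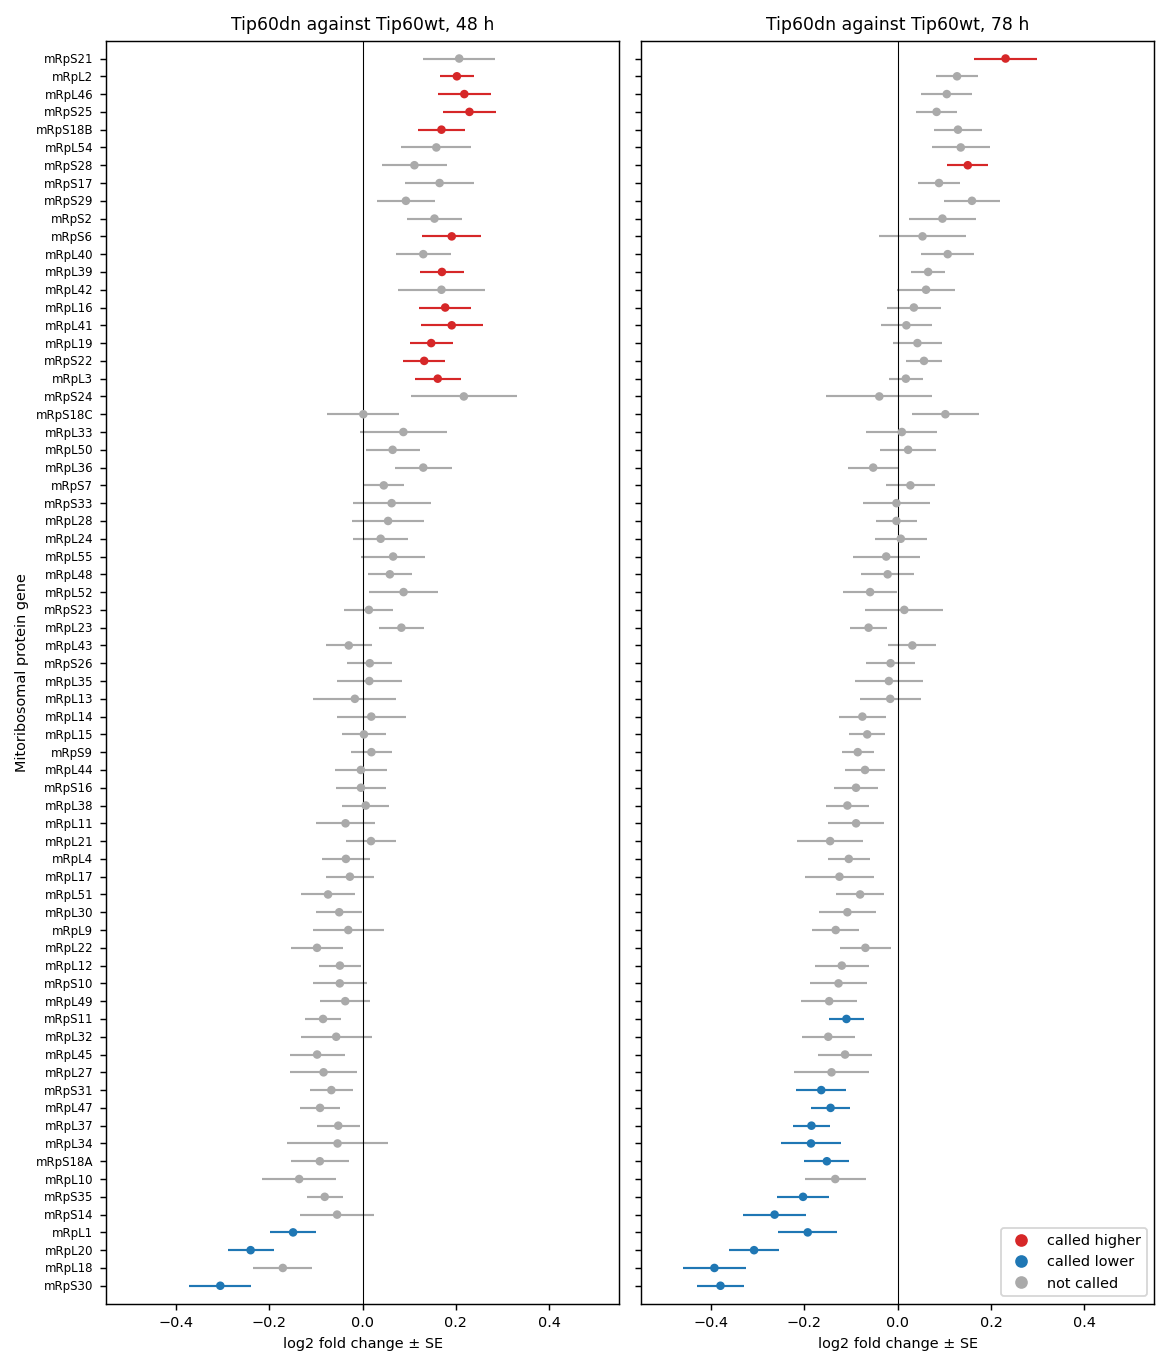
Log2 fold change, Tip60dn against Tip60wt, with its SE for the 70 tested genes at 48 h (left) and 78 h (right), ordered by the mean of both durations. Red and blue points are called higher and lower at an adjusted p under 0.05. At 48 h 11 genes are called higher and 3 lower, and at 78 h 2 higher and 12 lower.

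Among the calls at 78 h the balance lay the other way, but the edgeR test of the difference between durations called 0 of the 70 genes (0.0% of all genes tested). In Tip60dn discs 2 genes rose and 12 fell against Tip60wt, again 20.0% of 70 genes, against 36.8% of all genes tested (17.6% higher and 19.2% lower). The median log2 fold change was -0.06, against 0.01 for all genes, and the median size was 0.0926 against 0.204. Of 46 large subunit genes 6 fell and 0 rose, and of 24 small subunit genes 6 fell and 2 rose. For large subunit genes the edgeR count of rises was 0 although some fold changes were positive, up to 0.14.

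The largest fall at 78 h was that of mRpL18 (FBgn0026741, chromosome 2R, 12756434 to 12757173, plus strand), whose bacterial counterpart holds the smallest ribosomal RNA in the large subunit. It had 15.3, 13.99 and 12.7 CPM in Tip60dn, 18.9, 18.1 and 18.1 CPM in Tip60wt and 19.2, 18.6 and 19.1 CPM in control. All Tip60dn libraries were below all others of that duration. The log2 fold change against Tip60wt was -0.39 ± 0.068 (SE; edgeR adjusted p 0.00222). At 48 h its levels were 15.04, 14.6 and 16.6 CPM in Tip60dn and 17.2, 17.1 and 18.0 CPM in Tip60wt, without overlap, but the log2 fold change of -0.17 was not called (edgeR adjusted p 0.0612).

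The gene for mRpS14, a protein of the head of the small subunit in bacteria, had 11.2, 10.7 and 9.89 CPM in Tip60dn at 78 h, 13.6, 12.5 and 12.1 CPM in Tip60wt and 13.8, 13.6 and 13.0 CPM in control. The Tip60dn libraries were below all others, while Tip60wt and control overlapped, and the log2 fold change against Tip60wt was -0.26 ± 0.068 (SE; edgeR adjusted p 0.0142, and 0.0529 without Tip60dn replicate 3). At 48 h its 3 groups overlapped, with means of 11.6 CPM in Tip60dn, 12.03 CPM in Tip60wt and 11.4 CPM in control. Of its exon bases 32.0% lie opposite Naa15-16, which fell in the same comparison at 78 h (log2 fold change -0.21, edgeR adjusted p 0.0112). No source used here gives the strand setting of the counting, so reads of the 2 genes may not be fully separated.

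Other named falls at 78 h were mRpS35 (-0.20), mRpL34 (-0.19), mRpL37 (-0.18), mRpS31 (-0.16) and mRpS18A (-0.15), as log2 fold changes with edgeR adjusted p from 0.00566 to 0.0455. For mRpL37 the levels were 34.8, 35.8 and 33.6 CPM in Tip60dn, 39.1, 39.8 and 39.5 CPM in Tip60wt and 37.1, 37.5 and 39.0 CPM in control. The Tip60dn libraries were the 3 lowest. The call of mRpL34 was lost under 9 alternatives (edgeR or DESeq2 adjusted p up to 0.13), among them DESeq2, no filter on low counts, only the compared groups fitted, and leaving out any Tip60wt library or Tip60dn replicate 2 or 3. With the replicate number as a block, which at 78 h paired Tip60dn with Tip60wt libraries, its edgeR adjusted p was 0.0643.

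The genes that rose at 78 h encode small subunit proteins. For mRpS21 (FBgn0044511) the levels were 11.2, 12.3 and 11.6 CPM in Tip60dn, 9.36, 10.4 and 10.2 CPM in Tip60wt and 9.98, 9.15 and 9.58 CPM in control, without overlap between Tip60dn and the others. Its log2 fold change against Tip60wt was 0.23 ± 0.068 (SE; edgeR adjusted p 0.0261), which became 0.0789, 0.0531, 0.0906 and 0.067 without Tip60wt replicate 1, Tip60wt replicate 3, Tip60dn replicate 2 and Tip60dn replicate 3. The call of mRpS21 was also lost with no filter on low counts and with only the compared groups fitted. Of its exon bases 48% lie opposite CG8870, a gene with a mean of 0.0515 CPM.

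For mRpS28 the levels were 20.96, 21.3 and 21.7 CPM in Tip60dn, 19.5, 19.4 and 18.8 CPM in Tip60wt and 17.4, 18.0 and 18.3 CPM in control. The groups did not overlap and lay in the order control, Tip60wt, Tip60dn. The log2 fold change of Tip60dn against Tip60wt was 0.15 ± 0.044 (SE; edgeR adjusted p 0.0253). Without replicate 2 or 3 of either transgene it was no longer called, with adjusted p of 0.0541 to 0.0749. The call was also lost with no filter on low counts and with only the compared groups fitted (edgeR adjusted p up to 0.105).

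The count of 12 falls at 78 h was 7 without Tip60wt replicate 2, 6 without Tip60dn replicate 2, 4 without Tip60dn replicate 3 and 6 when only the compared groups were fitted, while the count of 2 rises ran from 0 to 2 when a library was left out. Without Tip60dn replicate 2 or 3 mRpS35 also lost its call (edgeR adjusted p 0.0674 and 0.0672). The named falls of mRpL18, mRpS30, mRpL20 and mRpL37 kept their call under every alternative tried. Hemocyte markers (8 of 8, median log2 fold change 1.61), myoblast markers (5 of 5, median 0.42) and tracheal markers (2 of 4, median 0.24) were also called higher in Tip60dn at 78 h, and their part in these results was not tested.

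Against Tip60wt, 3 genes were called lower in Tip60dn at 48 h and again at 78 h: mRpS30, mRpL20 and mRpL1. They are all 3 of the falls at 48 h and 25% of the 12 falls at 78 h. No gene was called higher at both durations, and 0 were called in opposite directions. Of all genes tested at both durations 14.1% were called lower at both, against 4.29% of the 70, while 12.3% were called higher at both and 0.0192% in opposite directions.

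The gene for mRpS30 (FBgn0030692, chromosome X, 15786047 to 15788288, plus strand) was the most abundant of the set by CPM. At 48 h it had 78.2, 73.5 and 82.2 CPM in Tip60dn, 93.3, 94.5 and 102 CPM in Tip60wt and 98.2, 103 and 87.8 CPM in control. At 78 h it had 81.4, 76.98 and 70.8 CPM in Tip60dn, 102, 99.4 and 96.7 CPM in Tip60wt and 104, 102 and 103 CPM in control. All 6 Tip60dn libraries were below all others, while Tip60wt and control overlapped. The log2 fold change against Tip60wt was -0.31 ± 0.066 (SE; edgeR adjusted p 0.00691) at 48 h and -0.38 ± 0.050 (SE; edgeR adjusted p 5.71e-04) at 78 h. The gene for mRpL3, on the same strand of X at 15761248 to 15762663, was among those that rose at 48 h.

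The gene for mRpL20 (FBgn0036335, chromosome 3L, 13017149 to 13017867, minus strand), whose bacterial counterpart acts early in the assembly of the large subunit, was the only one of the 70 whose libraries separated all 3 genotypes at both durations, and the only one called in all 6 comparisons within a duration. At 48 h it had 38.9, 37.3 and 35.6 CPM in control, 26.3, 27.0 and 24.9 CPM in Tip60wt and 22.5, 21.8 and 21.6 CPM in Tip60dn. At 78 h it had 37.2, 38.2 and 36.9 CPM in control, 28.7, 25.2 and 25.8 CPM in Tip60wt and 21.1, 22.1 and 21.2 CPM in Tip60dn. The genotypes did not overlap, with control highest and Tip60dn lowest. Of all genes tested at both durations, 3.17% had all 3 genotypes apart at both (1.43% of the 70) and 0.452% were called in all 6 comparisons (1.43% of the 70).

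The log2 fold change of mRpL20 in Tip60dn against Tip60wt was -0.24 ± 0.049 (SE; edgeR adjusted p 0.0052) at 48 h and -0.31 ± 0.053 (SE; edgeR adjusted p 0.0022) at 78 h. In Tip60wt against control it was -0.52 ± 0.049 (SE; edgeR adjusted p 5.1e-04) and -0.49 ± 0.053 (SE; edgeR adjusted p 9.86e-04). In Tip60dn against control it was -0.76 ± 0.049 (SE; edgeR adjusted p 1.22e-05) and -0.80 ± 0.053 (SE; edgeR adjusted p 1.52e-05). The sources used here do not say what else differs between the control and the transgenic animals.

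The gene for mRpL1 (FBgn0037566, chromosome 3R, 8301440 to 8302770, plus strand), counterpart of the protein that forms the mobile stalk beside the tRNA exit site, had a smaller fall. At 48 h it had 34.5, 31.6 and 32.6 CPM in Tip60dn, 35.1, 38.5 and 36.2 CPM in Tip60wt and 38.2, 37.6 and 37.1 CPM in control. At 78 h it had 34.4, 33.4 and 29.8 CPM in Tip60dn, 38.6, 37.0 and 35.9 CPM in Tip60wt and 35.9, 38.9 and 39.5 CPM in control. The Tip60dn libraries were below the others of their duration, narrowly so at 48 h. The log2 fold change against Tip60wt was -0.15 ± 0.049 (SE; edgeR adjusted p 0.0399) at 48 h and -0.19 ± 0.063 (SE; edgeR adjusted p 0.0376) at 78 h. At 48 h the call was lost without Tip60wt replicate 2 or 3 and without Tip60dn replicate 2 or 3 (adjusted p 0.0728 to 0.137), and at 78 h without Tip60wt replicate 1 or 2 and without Tip60dn replicate 2 or 3 (adjusted p 0.0627 to 0.106). With the replicate number as a block the adjusted p at 48 h was 0.064. The call of mRpL1 was also lost at both durations when only the compared groups were fitted.

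**Figure D3:**
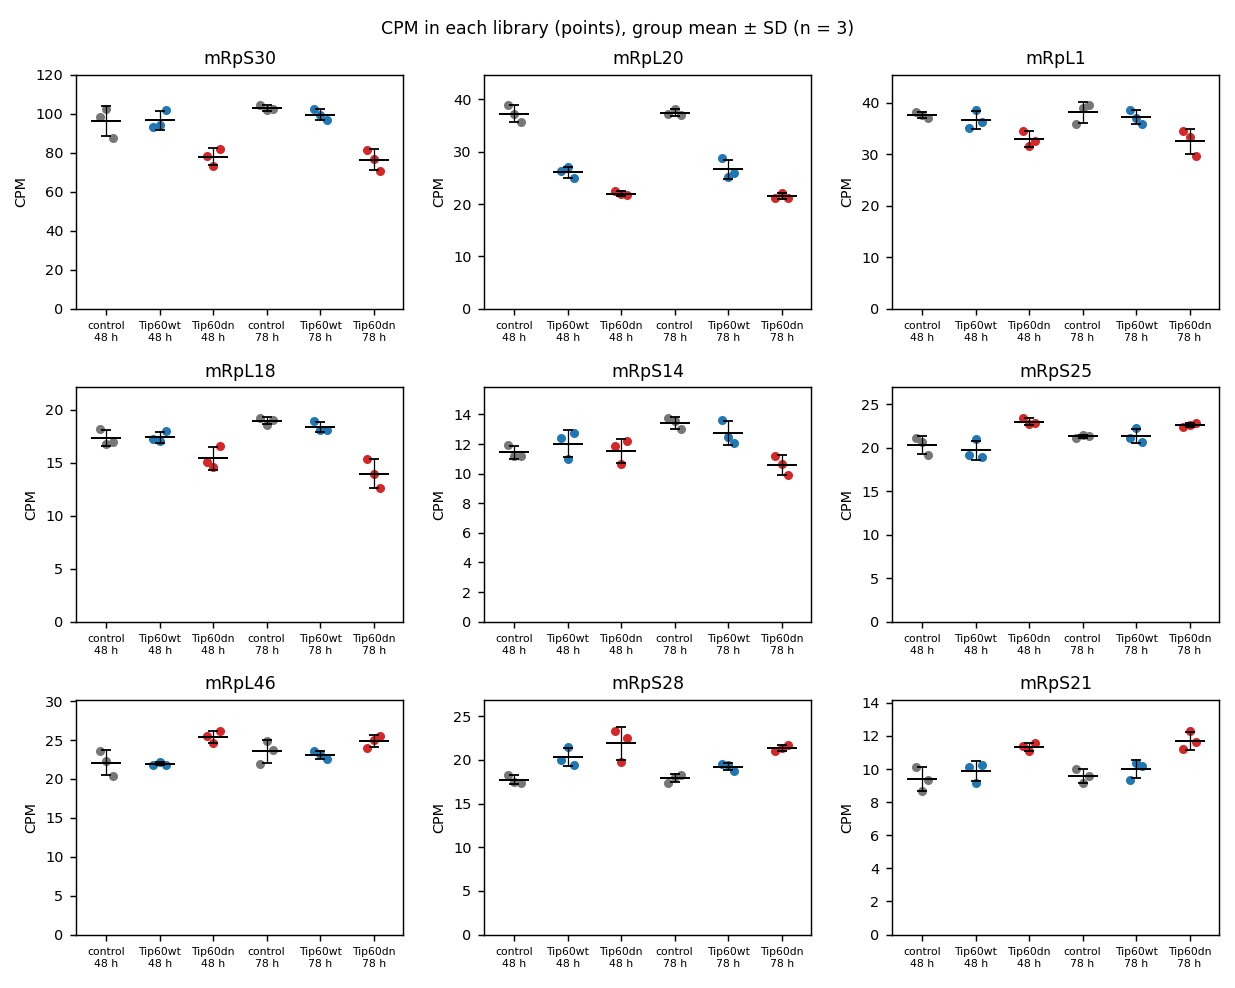
CPM in each library (points) with group mean and SD (n = 3) for 9 genes, control in grey, Tip60wt in blue and Tip60dn in red. The Tip60dn libraries are lowest for mRpS30, mRpL20 and mRpL1 at both durations, and mRpL20 also separates Tip60wt (24.9 to 28.7 CPM) from control (35.6 to 38.9 CPM).

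The comparison of Tip60dn with control shares its Tip60dn libraries with the comparisons above. At 48 h 17 genes rose and 6 fell in Tip60dn (32.9% of 70, against 39.0% of all genes tested, 19.6% higher and 19.4% lower). At 78 h 6 rose and 16 fell (31.4%, against 44.2%, with 22.4% higher and 21.7% lower). The median log2 fold change was 0.05 at 48 h and -0.05 at 78 h. In the same comparison 7 of 8 hemocyte, 3 of 5 myoblast and 3 of 4 tracheal markers were called higher at 48 h, and 6 of 8, 4 of 5 and 3 of 4 at 78 h, and their part in these results was not tested. The highest named values at 48 h were mRpS28 (0.31), mRpS21 (0.28), mRpL54 (0.27) and mRpL41 (0.24). The lowest were mRpL20 (-0.76), mRpS30 (-0.30), mRpL10 (-0.23), which forms the base of the stalk, and mRpL27 (-0.21). At 78 h the highest were mRpS21 (0.30), mRpS28 (0.26), mRpS18B (0.20) and mRpL54 (0.20), and the lowest were mRpL20 (-0.80), mRpL18 (-0.43), mRpS30 (-0.42) and mRpS14 (-0.34).

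Called at both durations against control were 5 rises, of mRpL54, mRpS18B, mRpS21, mRpS22 and mRpS28, which are 29.4% of the rises at 48 h and 83.3% of those at 78 h. The 5 shared falls, of mRpL1, mRpL10, mRpL20, mRpS30 and mRpS31, are 83.3% and 31.2%. These are 7.14% of the 70 genes each way, against 15.1% of all genes tested at both durations called higher at both and 16.5% called lower at both, with 0 of the 70 and 0.0385% of all genes called in opposite directions. Here mRpS22 and mRpS31 are named after their values were seen. At 48 h the call of mRpL10 was lost without any 1 of the Tip60dn libraries and without control replicate 1 or 2 (edgeR adjusted p up to 0.142). The call of mRpL54 was lost under 3 alternatives at 48 h and 5 at 78 h, and that of mRpS21 under 3 at 48 h. For mRpS28 the levels at 48 h were 23.3, 19.8 and 22.6 CPM in Tip60dn against 18.3, 17.5 and 17.4 CPM in control, without overlap, and Tip60wt lay between at 20.0, 21.5 and 19.4 CPM, overlapping Tip60dn. The 17 rises at 48 h became 4 and 11 without Tip60dn replicate 1 or 3 and 6 and 8 without control replicate 2 or 3, and the 6 falls became 2 without Tip60dn replicate 2 and 3 without control replicate 1. At 78 h the 6 rises became 3 without Tip60dn replicate 2 or without control replicate 1, and the 16 falls became 9 without Tip60dn replicate 3 and 8 without control replicate 3.

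**Figure D4:**
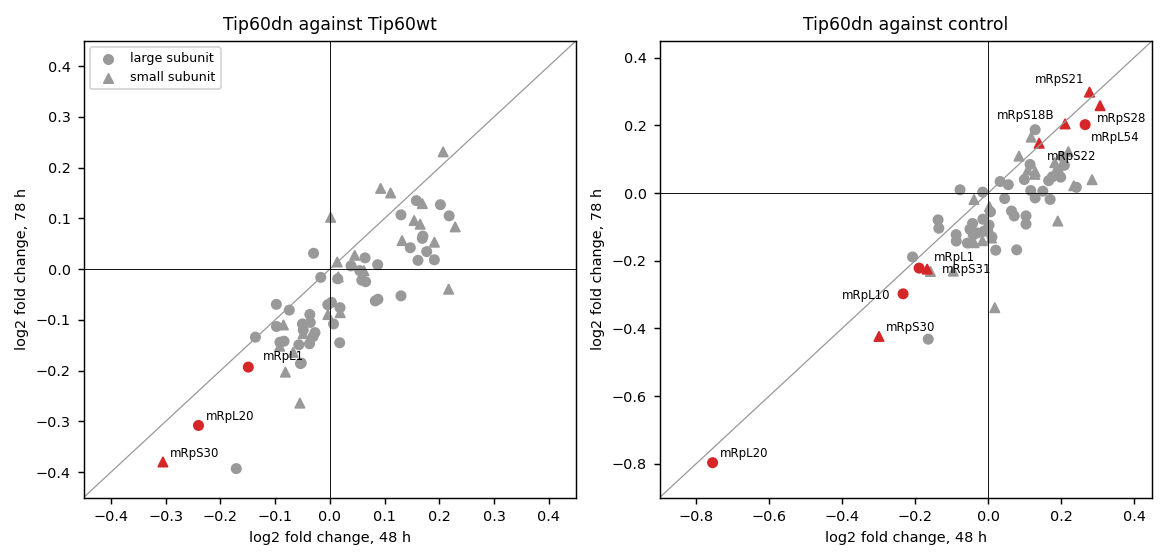
Log2 fold change at 48 h (x axis) against 78 h (y axis) for the 70 tested genes, Tip60dn against Tip60wt (left) and against control (right); circles are large and triangles small subunit genes, red points are called at both durations with the same sign, and the grey line marks equal values. Most points lie below the line, 61 of 70 on the left and 58 of 70 on the right.

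Few of these genes were called between wild type Tip60 and control. At 48 h 0 genes rose and 1 fell (1.43% of 70, against 3.57% of all genes tested, 1.73% higher and 1.84% lower), and at 78 h 1 rose and 1 fell (2.86%, against 4.07%, with 2.09% higher and 1.97% lower). In edgeR 3 genes at 48 h and 8 at 78 h had an unadjusted p under 0.05. The fall was mRpL20 at both durations. The rise was mRpS9 at 78 h, with 44.0, 43.2 and 45.5 CPM in Tip60wt against 40.0, 39.7 and 40.1 CPM in control, without overlap. Its log2 fold change was 0.15 ± 0.034 (SE; edgeR adjusted p 0.0403), and the call was lost under 8 alternatives, leaving out any 1 of the 3 control libraries or Tip60wt replicate 2 or 3 among them, with adjusted p of 0.06 to 0.159. Of its exon bases 25.1% lie opposite ArgRS-m, which was not called (log2 fold change -0.05).

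Between 78 h and 48 h, 0 of the 70 genes were called by edgeR in control, in Tip60wt or in Tip60dn, where 0.0%, 0.0% and 0.134% of all genes tested were called, the last with 0.0537% higher and 0.0806% lower. At an unadjusted p under 0.05 there were 4, 3 and 6 genes, and DESeq2 also called 0. Nor did the edgeR test of the difference between durations call any for Tip60dn against Tip60wt (0 of 70, background 0.0%, 5 with an unadjusted p under 0.05, smallest adjusted p 0.854) or against control (0 of 70, background 0.0%, 9 with an unadjusted p under 0.05, smallest adjusted p 0.513), with 0 by DESeq2 in both. The smallest unadjusted p was that of mRpS14 against control, 0.00363, with a difference in log2 fold change of -0.36 ± 0.11 (SE).

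As a description, the log2 fold change of Tip60dn against Tip60wt was lower at 78 h than at 48 h for 61 of 70 genes (87.1%), against 51.9% of all genes tested at both durations. The same share was 96.3% for cytosolic ribosomal protein genes and 85.5% for nuclear genes of the respiratory chain and ATP synthase. Genes measured in the same libraries are not independent, and the shift of the median was from 0.01 to -0.06. The sign of the fold change was the same at both durations for 54 of the 70 genes (77.1%), against 82.7% of all genes.

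Other genes of mitochondrial translation included larger changes. The small subunit proteins that carry other symbols, tko and bonsai, had log2 fold changes in Tip60dn against Tip60wt of -0.10 (not called) and -0.14 (edgeR adjusted p 0.025) at 48 h, and of -0.17 (edgeR adjusted p 0.0297) and -0.14 (edgeR adjusted p 0.0208) at 78 h. Of 9 translation factors, 3 rose and 2 fell at each duration. The calls are 55.6% of the 9, against 35.7% of all genes tested at 48 h and 36.8% at 78 h. The initiation factor gene mIF3 had 47.0, 52.1 and 41.0 CPM in Tip60dn at 48 h, 15.2, 13.6 and 15.9 CPM in Tip60wt and 14.1, 13.9 and 14.6 CPM in control. At 78 h it had 42.8, 31.6 and 28.2 CPM in Tip60dn, 14.7, 14.8 and 15.2 CPM in Tip60wt and 15.4, 15.2 and 15.3 CPM in control.

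The Tip60dn libraries of mIF3 were far above the others, with log2 fold changes against Tip60wt of 1.65 ± 0.090 (SE; edgeR adjusted p 7.79e-06) and 1.2 ± 0.13 (SE; edgeR adjusted p 1.88e-04). In no comparison did any of the 70 mitochondrial ribosomal protein genes reach a fold change of that size. Of the exon bases of mIF3, 19.4% lie opposite CG8841, which had log2 fold changes of 0.14 and 0.11. The ribosome recycling factor gene mRRF1 rose by 0.51 and 0.54 on the log2 scale at 48 h and 78 h (edgeR adjusted p 0.00557 and 0.00608). The elongation factor gene mEFTu1 fell, with -0.29 and -0.33 (edgeR adjusted p 8.65e-04 and 7.86e-04), and mEFTs fell at 48 h (-0.22) and mEFG1 at 78 h (-0.15).

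Of 14 mitochondrial tRNA synthetase genes, 7 rose and 1 fell at 48 h, and 1 rose and 1 fell at 78 h. The calls are 57.1% and 14.3% of the 14, against 35.7% and 36.8% of all genes tested. MetRS-m, for methionine, rose at both durations (0.40 and 0.23) and AspRS-m, for aspartate, fell at both (-0.22 and -0.20). Of 10 tested genes for mitochondrial DNA maintenance and transcription, 1 rose and 2 fell at 48 h and 3 fell at 78 h. At each duration this is 30.0% called, below the share of all genes tested. Against Tip60wt, TFAM, which packages mitochondrial DNA, fell by 0.22 and 0.25 on the log2 scale, and mtDNA-helicase fell by 0.29 and 0.46. In Tip60dn against control the lowest value of this list was -0.24 at 48 h and -0.32 at 78 h. The change of mtDNA-helicase against control was therefore no lower than these values, and nearer to 0 than its change against Tip60wt or of the other sign. In Tip60wt against control 1 gene of the list was called higher at each duration, and the highest values were 0.28 and 0.46. Of 8 tested genes for mitochondrial chaperones, proteases and prohibitins, 3 rose and 2 fell at 48 h and 4 fell at 78 h, with Phb1 at -0.18 and -0.25 and ClpX at -0.14 and -0.15. Of the 15 protein and ribosomal RNA genes of the mitochondrial genome, 0 were called by edgeR against Tip60wt at either duration. At an unadjusted p under 0.05 there were 0 and 1. Since the libraries were selected for polyadenylated RNA, the levels of these genes depend on that selection.

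The genes of the cytosolic ribosome and of the respiratory chain had medians of opposite sign in Tip60dn against Tip60wt. Of 81 tested cytosolic ribosomal protein genes 66 rose and 1 fell at 48 h (median log2 fold change 0.25). At 78 h, 49 of 82 rose and 2 fell (median 0.20). The calls are 82.7% and 62.2% of that list, against 35.7% and 36.8% of all genes tested. Of 70 tested nuclear genes of the respiratory chain and ATP synthase 5 rose and 16 fell at 48 h (median -0.05). At 78 h, 3 of 69 rose and 26 fell (median -0.12). Here 30.0% and 42.0% were called, below the share of all genes at 48 h. The falls alone are 22.9% and 37.7% of this list, against 17.7% and 19.2% of all genes tested. The 2 extreme falls in that list were ATP synthase subunits, ATPsynC (-0.37) and ATPsyngamma (-0.35) at 48 h and ATPsynC (-0.41) and ATPsynD (-0.40) at 78 h. The largest changes of the list were upward, called or not. Its highest log2 fold changes were 3.67 at 48 h and 2.21 at 78 h, and 4 and 3 genes were at least 2-fold higher. The difference between the lists was not tested.

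**Figure D5:**
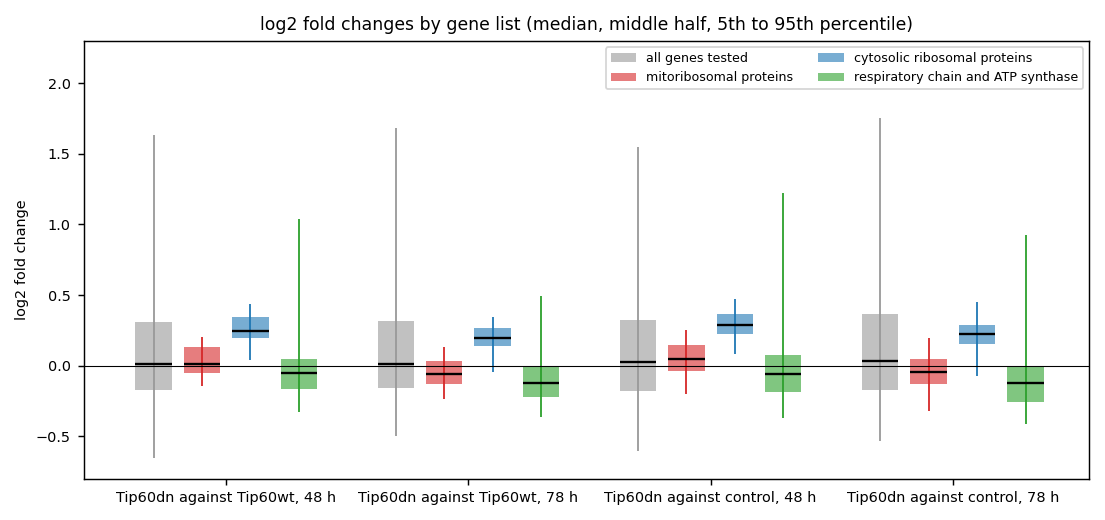
Log2 fold changes of Tip60dn against Tip60wt and against control at each duration for all genes tested, mitochondrial ribosomal protein genes, cytosolic ribosomal protein genes, and nuclear respiratory chain and ATP synthase genes; black bars are medians, boxes the middle part between the quartiles, and lines run from the 5th to the 95th percentile. Against Tip60wt the medians are 0.01 and -0.06 for mitochondrial and 0.25 and 0.20 for cytosolic ribosomal protein genes at 48 h and 78 h.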

How the data were processed

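The authors deposited gene counts, as 2 tables of 9 libraries, from polyadenylated RNA. Per the submitters' processing notes they used the BDGP6 build with featureCounts, FastQC, edgeR 3.13.4 and limma. The sources used here do not name the aligner, the strand setting, the annotation release or the handling of reads with several positions. Per the labels the libraries were directional. Symbols, exons and coordinates came from Ensembl release 115 (BDGP6); 306 identifiers had no match and held 5.70% to 6.01% of counts.

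With R 4.3.3 and edgeR 4.0.16, the 9 libraries of each duration were fitted together, and all 18 for differences between durations. Genes passed filterByExpr (minimum 10 counts), libraries were scaled by TMM, and two-sided quasi-likelihood tests were adjusted by Benjamini-Hochberg over all genes tested. A call is an adjusted p under 0.05, and rose or fell is written only of calls. CPM used TMM factors over 18 libraries, and the SE is the log2 fold change divided by the square root of F. Intervals reflect the spread between libraries only. DESeq2 1.42.0 and limma 3.58.1 were also loaded, DESeq2 as an alternative. The fits were tested on simulated data.

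Residuals of libraries with the same number correlated at 0.27 to 0.393 between Tip60dn and Tip60wt at 78 h and at 0.106 to 0.335 between Tip60wt and control at 48 h, all above 0.1, and were read as pairs there; no label states a shared day.

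Genes were named by a rule: for Tip60dn against Tip60wt up to 10 called genes each way by log2 fold change, for comparisons with control up to 4 each way, genes called alike at both durations, and the 5 highest and 5 lowest levels per kilobase. From each pathway list up to 2 called genes each way were named, with a few more translation factors, tRNA synthetases and chaperones chosen after their values were seen. List entries that matched no symbol in the tables (5 of 14 translation factors, 2 of 15 mitochondrial DNA genes and 3 of 12 chaperones and proteases) are not analysed here. The members, lists and rule were chosen with earlier results of these data known.

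At least 20% of exon bases are shared with another gene in 8 of the 71 genes, and some bases in 41, so their counts are less certain.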

Additional observations from a re-analysis of the deposited data

How the results depend on the processing

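Of 44 named fold changes, 19 kept their call under every alternative, 25 lost it under at least 1, and 0 changed direction; the cause was not tested. Of 100 counts of mitochondrial ribosomal protein genes under alternatives that kept all libraries, 10 moved by over 1.5 times. All 10 were counts within a duration. The 100 include the counts between durations, which were 0 and had little room to move, since few genes of any kind were called there. With no filter on low counts the rises became 4 (from 11, Tip60dn against Tip60wt, 48 h), 9 (from 17, against control, 48 h), 0 (from 2, Tip60dn against Tip60wt, 78 h), 3 (from 6, against control, 78 h) and 0 (from 1, Tip60wt against control, 78 h). With only the compared groups fitted they became 1 (from 2) and 0 (from 1) at 78 h, and the 12 falls became 6. Both rises of Tip60dn against Tip60wt at 78 h, mRpS21 and mRpS28, lost their call in that fit, so the 1 was another gene. With the replicate number as a block the rises became 7 (from 11) at 48 h and 0 (from 1) for Tip60wt against control at 78 h; the paired comparison at 78 h had 3 rises and 10 falls, and beside mRpL34 the block ended no other named call in a paired comparison.

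When 1 library was left out, Tip60dn against Tip60wt gave 1 to 9 rises and 2 to 3 falls at 48 h, and 0 to 2 and 4 to 13 at 78 h. Tip60dn against control gave 4 to 12 and 2 to 6 at 48 h, and 3 to 8 and 8 to 17 at 78 h. Tip60wt against control gave 0 and 1 at 48 h, and 0 to 1 and 1 at 78 h. Counts between durations stayed at 0 throughout. Over all genes, Tip60wt against control gave 382 calls at 48 h and 431 at 78 h in edgeR, and 342 higher with 376 lower and 470 higher with 491 lower in DESeq2. The lowest count behind a tested mitochondrial ribosomal protein gene in any library was 406, for mRpS24.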
